A study of Zea mays with 4 samples.

Results

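The 39 loci described here were short stretches of the maize (Zea mays) genome with very high RNA levels in endosperm, the part of the kernel that lays down starch and storage protein. They were chosen by their level and their length: a mean over the 4 deposited libraries of 500 FPKM or more and a locus shorter than 1200 bp, on the chromosomes or scaffolds of the nucleus. FPKM is a fragment count divided by transcript length and by library size, so it is a level per length and a share of its library. The files held 29642 loci, of which 141 nuclear ones reached the level; the 102 that were 1200 bp or longer serve as the comparison. All endosperm was taken at 15 days after pollination, from the rea1 mutant and from wild type, and each genotype gave 1 library of total RNA and 1 of polysomal RNA, collected with the ribosomes by spinning the extract through a dense sucrose layer. The labels name no inbred background, no allele and no mutated gene, and do not say how many kernels were pooled. The design text mentions triplicates, but each file held a single value per locus. The 4 groups thus had 1 library each, no difference had a replicate check, no p-value was computed, and "higher" and "lower" describe these libraries. Their summed FPKM lay between 846544 and 977156, with 25467 to 26748 loci above 0, and their depth is unknown.

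In cereal endosperm, a few families of storage-protein genes supply a large part of all messenger RNA during grain filling. In maize these are the zeins, whose alpha class is encoded by many short, intronless genes that stand in tandem arrays as near-identical copies, and whose messages are translated on the rough endoplasmic reticulum into protein bodies. In yeast, Rea1 (also called midasin) is an ATPase that strips assembly factors from the precursor of the large ribosomal subunit. The files identify loci by position on B73 RefGen_v3 and give no gene names. Whether any of the 39 loci encodes a zein was therefore not examined, and the tissue could not be checked against marker genes. Loci are named by chromosome, start and end, counted from 1, and no sequence is shown.

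The short loci held a large part of the summed FPKM of each library except rea1 total RNA. Shares here and below are of summed FPKM, which divides by transcript length. Loci with short transcripts therefore weigh more than by their fragments. In wild-type total RNA the 39 loci summed to 488649 FPKM, which was 50.01% of the library. In wild-type polysomal RNA they summed to 359448 FPKM, or 40.1%. In rea1 they held 29.1% of the polysomal library, with 246010 FPKM, and 13.5% of the total library, with 117562 FPKM. Their sum was thus 4.16-fold lower in rea1 than in wild type in total RNA and 1.46-fold lower in polysomal RNA. These folds depend on the scaling of the libraries: with the 3 other scalings (median of ratios, trimmed mean, equal sums without the 50 most abundant loci) the sum was 6.92-fold to 7.84-fold lower in total and 1.75-fold to 1.89-fold lower in polysomal RNA, and the genotype fold of each locus below moves with its fraction by the same factor. As FPKM is a share of the library, a smaller part held by the members leaves a larger part to all other loci. In bulk RNA, fewer cells that express a gene and less RNA per cell cannot be told apart. The 102 longer loci of the same level held 19.1% of wild-type total, 22.7% of rea1 total, 26.2% of wild-type polysomal and 25.3% of rea1 polysomal RNA. Rea1 total RNA was the library in which the short loci held less than the longer ones. As the members were chosen by their mean level, these shares are a description.

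**Figure D1:**
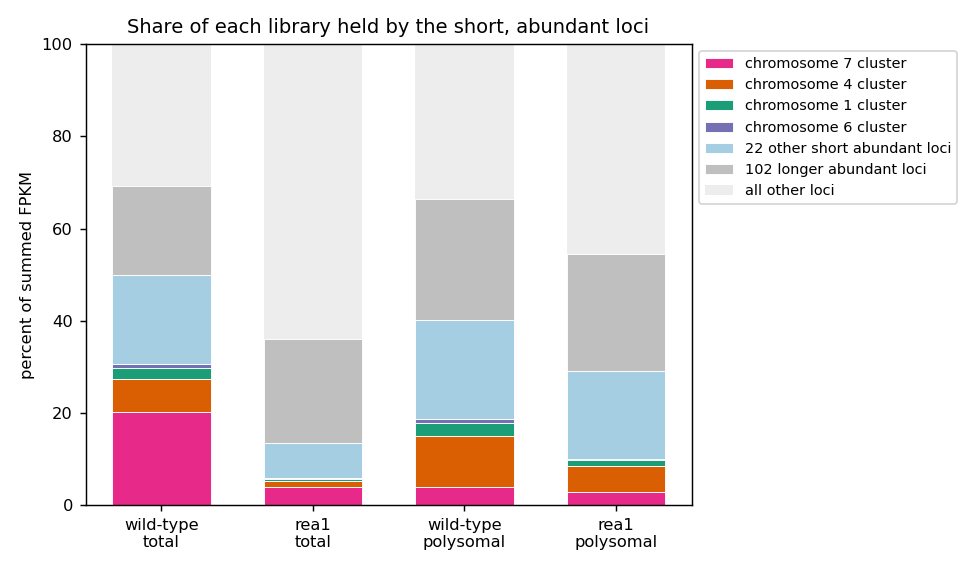
Percent of the summed FPKM of each library (vertical axis) held by the 4 position clusters of short loci, by the 22 short loci outside clusters, by the 102 longer abundant loci and by all other loci, as stacked bars with 1 bar per library. The 39 short loci reach 50.01% in wild-type total RNA and 13.5% in rea1 total RNA.

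Most of this sum came from few loci. The 10 with the highest mean held 84.5% of the members' sum in wild-type total RNA, 71.6% in rea1 total, 75.2% in wild-type polysomal and 76.7% in rea1 polysomal RNA. By mean level, chr6:44541825-44542774 came first, with 38973 FPKM in wild-type total, 19894 in rea1 total, 47790 in wild-type polysomal and 52920 in rea1 polysomal RNA. It ranked first of all loci in both polysomal libraries. The next was chr2:183991961-183993036, at 41136, 12994, 43734 and 44214 FPKM in the same order of libraries. For both loci rea1 total RNA was the low library and the other 3 lay close together. The locus chr4:21334901-21335970 was at 52408 FPKM in wild-type total, 5166 in rea1 total, 43299 in wild-type polysomal and 18398 in rea1 polysomal RNA. Here both wild-type libraries were above both rea1 libraries. The locus chr4:29951761-29952727 showed the same order, with 32120, 4935, 35275 and 16343 FPKM.

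**Figure D2:**
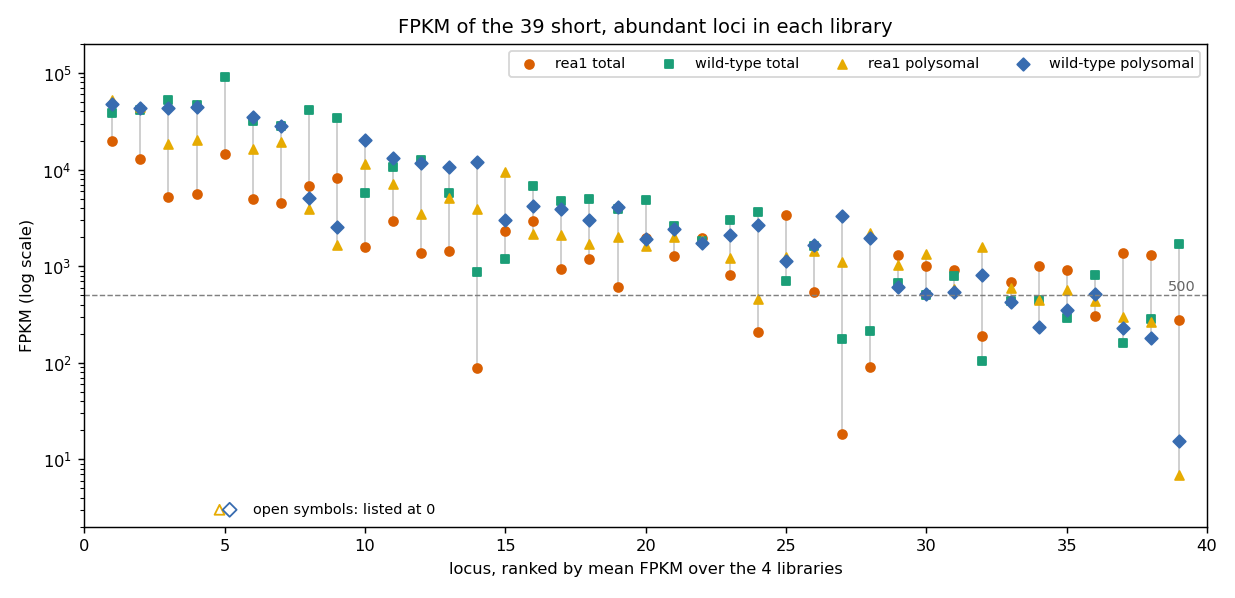
FPKM on a log scale (vertical axis) of each of the 39 short loci, ranked from left to right by mean FPKM; 1 symbol per library, a grey line from the lowest to the highest value above 0, and open symbols for a value listed at 0. In the upper part of the ranking rea1 total RNA (circles) is mostly the lowest library, and it is the lowest of the 4 for 21 of the 39 loci.

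Not every locus reached 500 FPKM in each library. All 4 libraries were at or above it for 26 loci, 3 libraries for 1 locus, 2 for 8 loci and 1 for 4 loci. Wild-type total RNA was the highest library for 16 loci, rea1 total for 9, wild-type polysomal for 8 and rea1 polysomal for 6. A locus that entered through 1 or 2 high libraries had to differ between libraries, so the main counts below are also given for the 26, of which 12 are in the position clusters described below and 14 stand alone. The ratio of the highest to the lowest library had a median of 5.65 over the 38 loci above 0 in all libraries and reached 248, against a median of 3.10 and a highest value of 9.55 among 101 longer abundant loci. The 248 belongs to chr7:18954749-18955697, which passed 500 FPKM in wild-type total RNA alone. Among the 26 the highest value was 21.1. As loci taken in through a high library are among the 38, this spread is a description. The steadiest as deposited was chr6:70732363-70733351, named here after its values were seen, at 1820 FPKM in wild-type total, 1969 in rea1 total, 1720 in wild-type polysomal and 1878 in rea1 polysomal RNA. Its libraries lay within 1.14-fold of each other as deposited. With the median of ratios they lay further apart, with rea1 over wild type at -0.63 (log2) in total RNA. Across the 39 loci, the order of levels was most alike between the polysomal libraries of the genotypes, with a Spearman rho of 0.924, and was 0.742 between the total libraries. Within a genotype, total against polysomal RNA gave a rho of 0.673 in wild type and 0.501 in rea1. These are descriptions over 39 loci that may share reads.

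At the limits of the rule, the members just above 500 FPKM were chr7:18954749-18955697, with a mean of 503 FPKM, and chr3:179928763-179929236, with 509. The short loci just below had means of 491 FPKM (chr6:160533097-160533295) and 484 FPKM (chr2:64574884-64575384). The longest members were 1188 bp (chr3:146123771-146124958) and 1171 bp (chr8:108689439-108690609). Just outside were loci of 1210 bp on chromosome 5, with a mean of 1455 FPKM, and of 1271 bp at chr4:29963321-29964591, with a mean of 14747 FPKM. That last one is a neighbour of the abundant member chr4:29951761-29952727.

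Position and exact length were not part of the rule. Chromosome 4 held 11 of the loci, chromosome 6 held 7, chromosome 7 held 6, chromosomes 1 and 8 held 5 each, and chromosome 10 and the scaffolds held none. With gaps of up to 500 kb joined, 17 loci formed 4 clusters and 22 stood alone. The clusters were 8 loci at 5.08 to 5.55 Mb of chromosome 4, 5 at 18.76 to 18.96 Mb of chromosome 7, 2 at 161.79 to 162.01 Mb of chromosome 1 and 2 at 39.09 Mb of chromosome 6. In the span of the chromosome 4 cluster lay 28 other loci, 4 of them longer abundant ones. Between positions 5146364 and 5535743 that cluster had no member, and its most abundant locus lay beyond this gap. With gaps of up to 100 kb joined, 15 loci were in clusters. No count under the same gap rule is given for longer loci or all loci, so the clusters are a description. Lengths ran from 474 to 1188 bp with a median of 948 bp. Just 2 lengths were shared by 3 or more loci: 723 bp and 726 bp, with 3 loci each. These 6 were the chromosome 1 pair and 4 of the 5 in the chromosome 7 cluster, and they held 22.4% of wild-type total RNA, 4.39% of rea1 total, 6.77% of wild-type polysomal and 4.20% of rea1 polysomal RNA. A length that is a multiple of 3 was found in 16 of the 39 loci (41.0%), in 41.7% of all 4359 short nuclear loci and in 32.4% of the 102 longer abundant ones. No member overlapped or shared its coordinates with another entry. Loci with near-identical copies can share reads, and how the authors assigned such reads is not given in the sources used here, so the value of a single locus of a cluster is uncertain where copies exist.

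The first comparison asks how the level in total RNA differs between the genotypes. Most of the short abundant loci were lower in rea1. Lower by a factor of 2 or more on the log2(FPKM + 1) scale were 26 of the 39, against 1.91% of all 17682 loci tested (mean of 1 FPKM or more), and 5 were higher by 2-fold or more, against 26.3%. The median log2 ratio, rea1 over wild type, was -1.66 for the 39 loci and 0.62 for all 17682, so the members lay 2.28 below it. The median of all loci rests on the scaling: it was between -0.15 and 0.0041 with the other scalings, under which the members lay 2.40 to 2.43 below it. After scaling by the median of ratios, 27 members were lower (5.66% of all loci) and 3 higher (6.75%). Among the 26 loci at or above 500 FPKM in every library, 19 were lower and 1 higher.

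All 17 clustered loci were lower by 2-fold or more in rea1 total RNA, as deposited and with each of the 3 other scalings. Their log2 ratios ran from -4.11 to -1.84 with a median of -2.62, and 12 of them were at or above 500 FPKM in every library. The chromosome 4 cluster had a sum of 70630 FPKM in wild type against 11305 in rea1, a 6.25-fold difference. Its most abundant locus, chr4:5535743-5536690, was at 46410 FPKM in wild type against 5558 in rea1, 8.35-fold lower. The second, chr4:5122439-5123472, was at 5671 and 1583 FPKM, 3.58-fold lower. The other 6 were lower by 3.70-fold to 9.74-fold, so no locus of that cluster went the other way. In the chromosome 7 cluster the sum was 5.76-fold lower, 197719 FPKM in wild type against 34316 in rea1. That cluster alone held 20.2% of the summed FPKM of wild-type total RNA and 3.93% of that of rea1 total RNA. Within it, chr7:18865424-18866146 was at 91299 FPKM in wild type, first of all loci, and at 14590 in rea1, 6.26-fold lower. The other 4 were lower by 4.25-fold to 6.31-fold. The chromosome 1 pair was 5.37-fold lower in sum and the chromosome 6 pair 7.24-fold lower. Of all members, chr6:39087615-39088302 was furthest down, at 3615 FPKM in wild type against 209 in rea1, 17.3-fold lower. It passed 500 FPKM in the wild-type libraries alone, so the rule took it in through the genotype in which it was high. Next was chr4:21334901-21335970, outside the clusters, 10.1-fold lower and at or above 500 FPKM in every library.

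The 22 loci outside clusters went both ways: 9 were lower by 2-fold or more and 5 higher by 2-fold or more, with a median log2 ratio of 0.16, which is 0.46 below that of all loci. With the other scalings 10 were lower and 3 higher, and the median was negative (-0.58 with the median of ratios). Of the 14 at or above 500 FPKM in every library, 7 were lower and 1 higher. The 4 most abundant among them were all lower in rea1, chr4:21334901-21335970 by 10.1-fold, chr4:29951761-29952727 by 6.51-fold, chr2:183991961-183993036 by 3.17-fold and chr6:44541825-44542774 by 1.96-fold. The 6 other loci lower by 2-fold or more were 2.06-fold to 3.01-fold lower. In polysomal RNA, rea1 over wild type of the same 6 ran from 0.511 to 1.12, so none of them was 2-fold apart there as deposited. With each of the other scalings the locus at 0.511 was lower by 2-fold or more in polysomal RNA. Highest against wild type was chr9:139441605-139442697, at 1371 FPKM in rea1 against 159 in wild type, 8.60-fold higher. The locus chr8:171118734-171119464 was 4.73-fold higher, at 3356 and 709 FPKM. The member chr3:179928763-179929236 was 4.66-fold higher, at 1307 and 281 FPKM. Of these 3, the chromosome 9 and chromosome 3 loci passed 500 FPKM in rea1 total RNA alone, so the rule took them in through the library in which they were high.

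Among the 102 longer abundant loci, 11 were lower by 2-fold or more and 63 higher by 2-fold or more in rea1 total RNA, with a median log2 ratio of 1.23, or 0.49 with the median of ratios. The 63 include 1 locus with no FPKM above 0 in the wild-type total library, which therefore also counts among the longer loci past 2-fold in the wild-type polysome ratio and in the ratio change below. The short loci also had the higher levels, with medians of 3007 against 537 FPKM in wild-type total, 1308 against 1282 in rea1 total, 2518 against 617 in wild-type polysomal and 1706 against 906 in rea1 polysomal RNA. When the loci were sorted by their mean in polysomal RNA, which the total RNA ratio does not use, 10 of 12 short loci at 5000 FPKM or more were lower, with a median of -2.31, and so were 8 of 10 longer loci, with a median of -2.59. At 1000 to 5000 FPKM, 13 of 16 short loci and 2 of 29 longer ones were lower, with medians of -1.74 and 0.48 as deposited and -2.48 and -0.26 with the median of ratios. Below 1000 FPKM, 3 of 11 short and 1 of 63 longer loci were lower. The short locus listed at 0 in polysomal RNA is among those 11. In this lowest class, a locus with a polysomal mean under 500 FPKM could enter only through a high total RNA library. Class and total RNA ratio are therefore not independent there. The part that level has in the difference between short and longer loci was not tested.

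**Figure D3:**
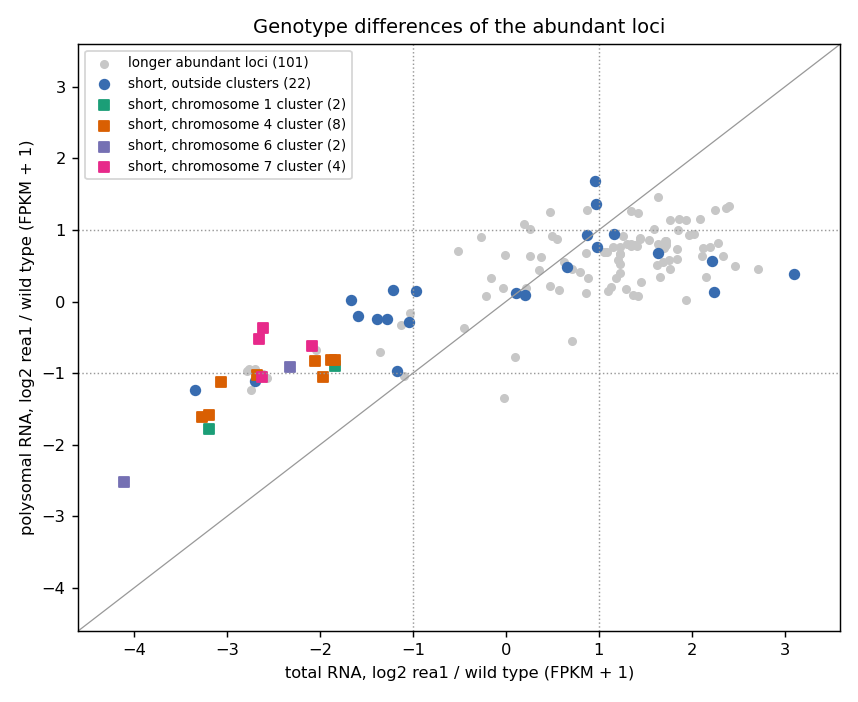
Genotype difference (log2, rea1 over wild type) in total RNA (horizontal axis) and in polysomal RNA (vertical axis), on the log2(FPKM + 1) scale, 1 point per abundant locus; dotted lines mark 2-fold, the solid line equal ratios, and 1 short and 1 longer locus listed at 0 in a library are left out. The clustered short loci (squares) lie at the lower left, between -4.11 and -1.84 in total RNA, and the 16 plotted are above the line of equal ratios.

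The second comparison asks how the polysomal RNA differs between the genotypes. The median of the short abundant loci was again lower in rea1, by a smaller fold, and 27 of the 39 were within 2-fold. Lower by 2-fold or more were 10 of the 39, against 1.34% of all loci tested, and higher by 2-fold or more were 2, against 3.96%. The median log2 ratio was -0.29, with 0.24 for all loci, so the members lay 0.53 below them. Rescaled by the median of ratios, 16 members were lower (2.43% of all loci) against 2 higher (2.09%). Of the 26 loci at or above 500 FPKM in every library, 6 were lower and 2 higher. Among the longer abundant loci 5 of 102 were lower and 16 higher, with a median of 0.64. With the median of ratios 9 were lower and 6 higher, with a median of 0.38. Sorted as deposited by mean in total RNA, 11 short and 9 longer loci reached 5000 FPKM, with polysomal medians of -0.62 and -0.77. Of these, 4 short and 1 longer were lower by 2-fold or more. At 1000 to 5000 FPKM the medians were -0.81 (14 short) and 0.67 (42 longer), and below 1000 FPKM 0.43 (14 short) and 0.64 (51 longer).

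Of the clustered loci, 8 of 17 were lower by 2-fold or more in polysomal RNA and the other 9 were within 2-fold, 1 of them listed at 0 in both libraries; with each of the other scalings 13 were lower. Of the 12 at or above 500 FPKM in every library, 4 were lower. The chromosome 4 cluster had a sum of 99667 FPKM in wild type against 46870 in rea1, a 2.13-fold difference, and 5 of its 8 loci were lower by 2-fold or more. Its locus chr4:5535743-5536690 was 2.18-fold lower, at 44592 and 20425 FPKM. The locus chr4:5122439-5123472 was at 20084 and 11453 FPKM, 1.75-fold lower, and the other 6 were lower by 1.76-fold to 3.06-fold. The sums of the chromosome 6 and chromosome 1 pairs were 2.59-fold and 2.38-fold lower. The chromosome 7 cluster was 1.43-fold lower, 35701 FPKM in wild type against 25047 in rea1. Most of that sum was the locus chr7:18877460-18878182, at 28102 and 19471 FPKM. Lowest against wild type were chr6:39087615-39088302, at 2671 FPKM in wild type against 463 in rea1 (5.78-fold lower), and chr1:162006911-162007636, at 11786 and 3442 FPKM (3.42-fold lower). The chromosome 6 locus passed 500 FPKM in wild type alone.

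Both loci that were higher by 2-fold or more stood outside the clusters. The locus chr6:121573176-121574010 was at 9545 FPKM in rea1 against 2975 in wild type, 3.21-fold higher, and in total RNA it was 1.94-fold higher, at 2315 and 1192 FPKM. The locus chr3:146123771-146124958 was at 1346 and 521 FPKM, 2.58-fold higher, and in total RNA at 992 and 507 FPKM, 1.96-fold higher. In these 2 loci the polysomal difference was the larger one. The 2 most abundant members were nearly level between the genotypes here as deposited, with rea1 over wild type at 1.11 (chr6:44541825-44542774) and 1.01 (chr2:183991961-183993036), while the other scalings put both below wild type, at -0.12 and -0.25 (log2) with the median of ratios. All 10 loci that were lower by 2-fold or more in polysomal RNA were so in total RNA, and 16 were that much lower in total RNA alone. Of all loci tested, 0.475% were lower in both fractions and 1.44% in total RNA alone. The counts were 6 and 13 among the 26 members at or above 500 FPKM in every library, and 4 and 7 among the 102 longer loci. Rescaled by the median of ratios, 16 members were lower in both fractions (1.03%) against 11 in total RNA alone (4.63%). Across the 38 loci above 0 in all libraries, the log2 ratios of the RNA fractions correlated with Pearson r = 0.857 and Spearman rho = 0.911, and across the 101 longer loci with 0.754 and 0.540. As the loci were chosen by mean level, some entered through the genotype in which they were high, so these correlations are a description. The fractions share no library, but loci that share reads are not independent points. The labels do not say whether both fractions came from the same kernels.

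Polysomal RNA was next set against total RNA of the same genotype. As FPKM is relative to each library, the ratio is not the share of a transcript on polysomes. Its folds below are as deposited unless another scaling is named, and they move with the scaling, more in rea1 than in wild type. With the median of ratios the factors were 0.69 for rea1 total, 1.03 for rea1 polysomal, 1.15 for wild-type total and 1.23 for wild-type polysomal RNA. In wild type the short loci had the same median as all loci, with extremes on both sides. Enriched 2-fold or more in polysomal RNA were 6 of the 39 (4.51% of all loci tested) and lower by 2-fold or more were 5 (6.97%), the locus listed at 0 included, with a median log2 ratio of -0.06 for the members and -0.06 for all loci. Rescaled by the median of ratios, 7 were higher (5.77%) against 5 lower (6.42%). The quartiles were -0.60 and 0.31 for the members and -0.43 and 0.29 for all loci. Of the 102 longer abundant loci 4 were higher, and the lowest lay at -0.98 (log2). Among the 26 short loci at or above 500 FPKM in every library, 2 were higher and 3 lower, so 6 of the 11 past 2-fold lay under 500 FPKM in a library, where the choice by mean level takes them in through a high one.

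The widest ratios stood side by side in the clusters. On chromosome 4, the neighbours chr4:5079765-5080833 and chr4:5083079-5084155 were at 175 and 866 FPKM in wild-type total RNA and at 3332 and 11852 FPKM in wild-type polysomal RNA, 19.1-fold and 13.7-fold higher. In rea1 the first was at 18.1 FPKM in total and 1116 in polysomal RNA, 61.6-fold higher, and the second at 88.9 and 3868 FPKM, 43.5-fold higher. The locus chr4:5535743-5536690 of that cluster was nearly level in wild type, at 0.961 of its total value. On chromosome 7 the direction was opposite for most loci. In wild type, chr7:18755936-18756661 was at 41754 FPKM in total and 5065 in polysomal RNA, 8.24-fold lower, and chr7:18779575-18780300 was at 34546 and 2518 FPKM, 13.7-fold lower. The member chr7:18954749-18955697 was at 1712 and 15.5 FPKM, 111-fold lower, and in rea1 at 277 and 6.90 FPKM, 40.2-fold lower. The locus chr7:18865424-18866146, the most abundant of all in wild-type total RNA, was listed at 0 in both polysomal libraries, so no fold is given. A listed 0 can be a failed estimate. Between these, chr7:18877460-18878182, of the same 723 bp, was at 28408 FPKM in total and 28102 in polysomal RNA of wild type. In sum the chromosome 7 cluster was 5.54-fold lower in polysomal RNA of wild type, and 2.98-fold lower without the locus listed at 0. Whether reads were divided differently among copies in the libraries was not tested.

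Outside the clusters, chr8:108689439-108690609 was also far higher in polysomal RNA, at 212 FPKM in total and 1952 in polysomal RNA of wild type (9.20-fold) and at 90.8 and 2189 FPKM in rea1 (24.1-fold). The locus chr5:169860841-169861380, named after its values were seen, was at 104 and 819 FPKM in wild type (7.89-fold) and at 191 and 1565 FPKM in rea1 (8.18-fold). In this locus the ratio was about the same in both genotypes as deposited, a change of 0.06 (log2). Each of the other scalings raises the ratio in rea1 relative to wild type.

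In rea1 the median polysome-to-total ratio of the short loci was above that of all loci. Higher by 2-fold or more were 19 of the 39 (2.91% of all loci tested) and lower by 2-fold or more were 7 (20.3%), again with the locus listed at 0. The median log2 ratio was 0.65 for the members and -0.47 for all loci, a distance of 1.12. With the other scalings the median of all loci lay between -0.03 and 0.02, and the members were 1.20 to 1.21 above it. Rescaled as above, 24 were higher (7.21%) and 5 lower (7.74%). Of the 26 loci at or above 500 FPKM in every library, 14 were higher and 2 lower. Among the longer abundant loci 12 of 102 were higher and 19 lower, and their median was -0.52, or 0.05 with the median of ratios. The sum of the chromosome 4 cluster was 4.15-fold higher in polysomal than in total RNA of rea1, that of the chromosome 1 pair 2.43-fold and that of the chromosome 6 pair 2.23-fold higher. The chromosome 7 cluster was 1.37-fold lower in sum as deposited, and 1.27-fold higher without the locus listed at 0. With each of the other scalings its whole sum was higher in polysomal than in total RNA, by less than 2-fold. In both genotypes 6 members were higher by 2-fold or more in polysomal RNA (1.41% of all loci tested) and 3, the locus listed at 0 among them, lower by 2-fold or more (4.94%). Rescaled by the median of ratios, 7 were higher (2.32%) and 3 lower (3.25%) in both. Of the 102 longer abundant loci 0 were higher and 0 lower in both genotypes as deposited. At or above 500 FPKM in every library were 2 of the 6 members and 1 of the 3, and the others were below it in a library of the fraction in which they are low.

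**Figure D4:**
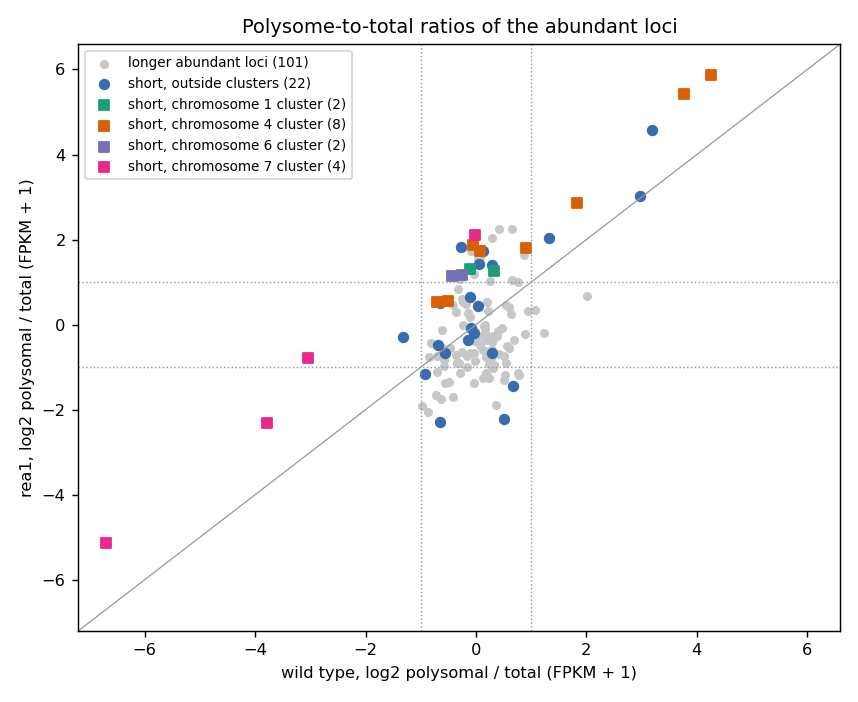
Log2 ratio of polysomal over total RNA in wild type (horizontal axis) and in rea1 (vertical axis), on the log2(FPKM + 1) scale, 1 point per abundant locus; dotted lines mark 2-fold, the solid line equal ratios, and 1 short and 1 longer locus listed at 0 in a library are left out. The chromosome 4 and chromosome 7 clusters reach from 5.87 to -5.14 in rea1, and the 16 clustered loci plotted lie above the line.

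The genotypes were then compared in their polysome-to-total ratio, as the log2 ratio of the genotypes in polysomal RNA minus that in total RNA. The ratio was higher in rea1 for most of the short abundant loci. Higher by 2-fold or more were 23 of the 39 (2.05% of all loci tested), 1 of them the locus listed at 0, and lower by 2-fold or more were 3 (15.5%). The median was 1.12 for the members and -0.37 for all loci, a distance of 1.49. With the other scalings the median of all loci was 0.04 to 0.10, and the members lay 1.55 to 1.56 above it. Rescaled by the median of ratios, 27 were higher (5.03%) against 3 lower (6.37%). Among the 26 loci at or above 500 FPKM in every library, 16 were higher and 1 lower. Of the longer abundant loci 9 were higher and 27 lower, and their median was -0.57. As this change is built from the total and polysomal differences above, it is no separate evidence for either.

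All 17 clustered loci had a higher ratio in rea1, by 0.91 to 2.65 (log2), and 15 by at least 2-fold, 10 of them among the 12 at or above 500 FPKM in every library. The value of 2.65 belongs to the chromosome 7 locus listed at 0 in both polysomal libraries and stands for its total RNA difference alone. Next came chr7:18755936-18756661, where polysomal over total RNA was 0.121 in wild type and 0.577 in rea1, a change of 2.25, and chr7:18877460-18878182, with 0.989 and 4.33, a change of 2.13. At the other end, chr9:139441605-139442697 went from 1.42 in wild type to 0.216 in rea1, a change of -2.72. Its polysomal values were 227 FPKM in wild type against 295 in rea1, so the change came with its high value in rea1 total RNA. For chr8:171118734-171119464, the ratios were 1.59 and 0.370, a change of -2.10, or -1.63 to -1.56 with the other scalings. The third was chr3:179928763-179929236, with 0.639 and 0.204 and a change of -1.64. All 3 had been among the loci higher by 2-fold or more in rea1 total RNA.

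Every ratio of the comparisons above stayed under 2-fold for 4 of the 39 loci as deposited (6 with the median of ratios), and their values are given here for contrast, as loci named after their values were seen. They are chr6:70732363-70733351, described above, chr1:22936909-22937586, chr8:172874285-172875117 and chr6:65095742-65096843, all outside the clusters. The chromosome 1 locus was at 665 FPKM in wild-type total, 1308 in rea1 total, 603 in wild-type polysomal and 1021 in rea1 polysomal RNA. In it both rea1 libraries were above both wild-type libraries, by 1.97-fold in total and 1.69-fold in polysomal RNA. The chromosome 8 locus was at 796, 922, 538 and 576 FPKM in the same order, with both total libraries above both polysomal ones as deposited. With the median of ratios polysomal RNA stayed below total RNA within each genotype (log2 ratio -0.46 in wild type and -0.10 in rea1). However, rea1 total then fell below wild-type polysomal RNA. The second chromosome 6 locus was at 437, 690, 428 and 599 FPKM, again with rea1 above wild type in both fractions as deposited, though not in total RNA with the median of ratios (-0.08, log2). By mean level they ranked from 22 to 33 among the 39, below all 10 of the most abundant.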

How the data were processed

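RNA of 4 endosperm libraries was analysed from 1 deposited table each, whose single measurement was FPKM per locus, per the file headers. The submitters' processing notes name Bowtie 0.12.2 and the build B73 RefGen_v3. Not given in the sources used here are the FPKM program, the annotation, read totals, the treatment of multiply mapped reads and any pooling. Depth is therefore unknown, and no interval could be given. Locus starts count from 0 in the files: read so, 48 of 73 organelle loci had a length divisible by 3, against 16 otherwise. The only gene table was of a different build and was not joined.

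Log2 ratios used a pseudocount of 1, which understates low loci; the background was every locus whose mean reached 1 FPKM, and 2-fold was the limit for counting. The members, their clusters (gaps of up to 500 kb), the level classes and the limits were chosen with earlier results of these data known. Loci named were the 10 most abundant, the 2 highest and 2 lowest per comparison above 0, any at 0, those next to a limit and the 2 most abundant of each cluster of 3 or more; loci named after their values were seen are marked so. Alternatives were pseudocounts of 0.1 and 5, 3 other scalings, and other limits of level, length and gap. Scaling and the 2-fold limit were tested on noise-free copies of the wild-type total library, with loci moved evenly up and down. Clustering was tested on made positions. The real libraries differ from this setting, as their most abundant loci mostly moved in the same direction. Python 3.11.15, numpy 2.4.6, pandas 2.3.3 and matplotlib 3.10.9 were used.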

Additional observations from a re-analysis of the deposited data

Results flagged for a closer look

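As deposited, 1 of the 39 loci went opposite ways in the genotypes by at least 1.5-fold each, and this count may differ with the other scalings. The locus chr8:171118734-171119464 was at 709 FPKM in total and 1129 in polysomal RNA of wild type (log2 ratio 0.67), and at 3356 and 1241 FPKM in rea1 (-1.43), a difference of -2.10. With the 3 other scalings the rea1 ratio lay between -0.92 and -0.86, under 2-fold, and the difference between -1.63 and -1.56. It rests on 1 library per group and was not tested.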

How the results depend on the processing

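No paired analysis was possible because each group holds 1 library; for the same reason no replicate could be left out. Of 141 recomputed counts and shares of the members, 107 stayed within 1.5 times and 34 did not; of 520 recomputed values of single loci and of all loci, 0 changed sign past 2-fold and 20 moved across 2-fold or by more than 1.5 times. Of these, 4 were shares of all loci without the filter on level, and 16 belonged to 6 loci: chr6:44541825-44542774 became lower by 2-fold in total RNA (-1.89 to -1.70), chr4:5122439-5123472 in polysomal RNA (-1.18 to -1.07), and chr6:121573176-121574010 higher in the ratio change (1.20 to 1.27), each with the 3 other scalings; chr8:171118734-171119464 fell under 2-fold in the rea1 ratio (-0.92 to -0.86); chr3:146123771-146124958 came over it in the rea1 ratio (1.01 and 1.02) and under it in polysomal RNA (0.995); chr7:18954749-18955697 fell under it in polysomal RNA with a pseudocount of 5 (-0.78). The pseudocounts of 0.1 and 5 and the removal of the locus listed at 0 moved no count or share of the members by more than 1.5 times. No member shares coordinates, so that alternative changed nothing.

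With the 3 other scalings 3 members were higher in rea1 total RNA and 16 lower in polysomal RNA, and with equal sums without the 50 most abundant loci 1 was higher in polysomal RNA. With a mean of at least 1000 FPKM, 1 was higher in total, 1 higher in polysomal RNA, 3 had a lower polysome ratio in rea1 and 1 a lower ratio change. With at least 500 FPKM in each library these were 1 higher in total, 6 lower in polysomal RNA, 2 higher and 3 lower in the wild-type ratio, 2 lower in the rea1 ratio, 1 lower in the ratio change and 11 in clusters. Below 900 bp, 18 loci remained: 3 higher and 11 lower in total, 1 higher and 2 lower in polysomal RNA, 2 higher and 3 lower in the wild-type ratio, 7 higher in the rea1 ratio, 8 higher in the ratio change and 8 in clusters, with shares of 24.7% of wild-type total, 6.24% of rea1 total, 9.03% of wild-type polysomal and 6.77% of rea1 polysomal RNA. Below 1500 bp, with 54 loci, 9 were higher in total, 4 higher in polysomal RNA and 6 lower in the ratio change. The limits of level and length change which loci are counted; for the scalings, the cause was not tested. The depth is unknown, so no limit of detection can be given.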
